A study of Homo sapiens with 6 samples.

Results

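The promoters and surroundings of 10 SOX genes that mark lineages other than pluripotent cells were examined for CpG methylation in cultures of human embryonic stem cells, conventional or reset. The genes were taken by name from all 19819 protein-coding genes of GENCODE v44lift37 on chromosomes 1 to 22 and X of GRCh37, and SOX2 was not among them. They were divided into 4 neural genes (SOX1, SOX11, SOX14 and SOX21), 3 endoderm genes (SOX7, SOX17 and SOX18) and 3 neural crest genes (SOX8, SOX9 and SOX10). For each gene the promoter (1000 bp before to 500 bp after the start site of the canonical transcript), the gene body beyond the promoter and the 40 tiles of 500 bp that lie within 10000 bp of the start site were read. The study resets H9, an established line of human embryonic stem cells, and whole-genome bisulfite sequencing (BS-seq) was done on 3 conventional and 3 reset cultures. Conventional PSC (pluripotent stem cells) were grown in FGF/KSR, a serum replacement medium (20% KSR) with 10 ng/ml bFGF. Reset cells derived from H9 carrying doxycycline-inducible NANOG and KLF2 transgenes, which were induced until doxycycline was withdrawn, and were kept in t2iL+Gö (1 μM of the MEK inhibitor PD0325901, 1 μM of the GSK3 inhibitor CHIR99021, LIF and 5 μM of the PKC inhibitor Gö6983). Both cultures were kept at 5% oxygen on mouse embryonic fibroblast feeders. The study calls its replicates biological, but the labels do not say whether the 3 reset libraries go back to separate resetting events. The p-values rest on the number of calls and on the spread between these libraries, pooled in part over all regions of a kind. They may not cover a spread between resetting events.

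SOX proteins are transcription factors with an HMG box, a domain that binds and bends DNA. SOX2 acts with OCT4 in pluripotent cells, whereas many other family members are known for their part in cells that commit to a lineage. Expression of the members was not read here. SOX1 (a SOXB1 factor) marks the neural plate and neural progenitors, SOX11 (SOXC) is found in young neurons, and SOX14 and SOX21 (SOXB2) act as repressors in neural progenitors and neurons. The SOXF genes SOX7, SOX17 and SOX18 act in endoderm and in blood vessels. SOX17 is the usual marker of definitive endoderm, and SOX18 is known best from vascular and lymphatic endothelium. The SOXE genes SOX8, SOX9 and SOX10 act in the neural crest. SOX9 is also the regulator of cartilage and testis, and SOX10 of glia and pigment cells. Promoters of such developmental regulators are usually CpG-rich and unmethylated in pluripotent cells.

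The CpG content of the regions differs, which is visible in the reference sequence (GRCh37, the strand of the gene, each CG in capitals, distances from the GENCODE v44lift37 start site). The middle 300 bases of the tiles with the largest gain are given for SOX9, SOX1 and SOX21, and those of the tile with the largest loss for SOX11. The SOX9 stretch (chr17:70112261-70112560, plus strand, from -4900 to -4600 bp of the start site, 11 CpGs) lies in an intron of SOX9-AS1. The SOX1 stretch (chr13:112716563-112716862, plus strand, -4900 to -4600 bp, 24 CpGs) lies in an intron of the overlapping transcript SOX1-OT and holds a run of CG repeats. The SOX21 stretch (chr13:95354900-95355199, minus strand, 9600 to 9900 bp, 28 CpGs) overlaps an exon of LINC00391. The SOX11 stretch (chr2:5827116-5827415, plus strand, -5400 to -5100 bp) lies in an intron of LINC01248 and holds 4 CpGs at a GC content of 37%.
SOX9 -4900: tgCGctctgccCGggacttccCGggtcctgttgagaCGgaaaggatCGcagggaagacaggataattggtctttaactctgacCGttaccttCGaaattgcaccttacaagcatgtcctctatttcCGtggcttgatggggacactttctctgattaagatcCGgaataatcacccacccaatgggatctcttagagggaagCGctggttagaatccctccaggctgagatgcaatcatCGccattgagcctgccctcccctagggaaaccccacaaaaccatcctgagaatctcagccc
SOX1 -4900: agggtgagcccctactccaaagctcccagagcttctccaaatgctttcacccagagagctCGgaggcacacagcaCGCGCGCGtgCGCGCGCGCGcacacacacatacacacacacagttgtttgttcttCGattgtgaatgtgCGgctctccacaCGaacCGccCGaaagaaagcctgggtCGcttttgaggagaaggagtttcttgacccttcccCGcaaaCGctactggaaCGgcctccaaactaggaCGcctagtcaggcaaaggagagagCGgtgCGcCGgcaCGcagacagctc
SOX21 9600: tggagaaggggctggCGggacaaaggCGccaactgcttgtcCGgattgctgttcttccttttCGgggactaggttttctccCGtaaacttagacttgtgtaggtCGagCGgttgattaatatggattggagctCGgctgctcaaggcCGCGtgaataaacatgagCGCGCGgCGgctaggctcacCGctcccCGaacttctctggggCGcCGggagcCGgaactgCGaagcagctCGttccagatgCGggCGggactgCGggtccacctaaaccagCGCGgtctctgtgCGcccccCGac
SOX11 -5400: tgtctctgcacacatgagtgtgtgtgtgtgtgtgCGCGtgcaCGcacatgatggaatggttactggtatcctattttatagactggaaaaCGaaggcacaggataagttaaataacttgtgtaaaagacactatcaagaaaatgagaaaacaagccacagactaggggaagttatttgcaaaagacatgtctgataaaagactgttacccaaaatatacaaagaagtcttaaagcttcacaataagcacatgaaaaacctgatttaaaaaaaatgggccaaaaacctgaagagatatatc

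The methylation level of a region is the share of its CpG calls that were methylated, computed for each library and given as a percentage, and changes are given in percentage points as reset minus conventional. The conventional libraries held 92023996 to 98004161 calls and the reset libraries 70329213 to 80199615, which is 3.28 to 3.49 and 2.51 to 2.86 calls per CpG. Over all calls 84.3 to 84.6% were methylated in conventional PSC and 29.5 to 30.3% in reset cells. A change was called when its adjusted p was under 0.05 in a quasi-binomial model fitted over the same kind of region of every protein-coding gene, and regions with fewer than 10 calls in any library were not tested. All 10 promoters passed that minimum, with 61 to 491 calls per library. Relative to each library's average, the tiles around the start sites had 0.921 to 1.26 times as many calls per CpG in reset as in conventional PSC. The ratio was highest for SOX1 (1.26) and SOX18 (1.23), and the part of this in the methylation values was not tested.

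At the promoters, 3 of the 10 SOX genes were called higher in reset cells (SOX14, SOX7 and SOX11), 1 was called lower (SOX18) and 6 were not called. Of 19300 promoters tested, 3.98% were called higher and 67.4% lower. The median member had a level of 1.37% in conventional and 6.01% in reset cells, while the median of all promoters went from 15.4% to 4.98%. The median change was 2.19 points over the members and -9.59 points over all promoters. Most members thus started lower than the median promoter, and the share called among promoters that start as low was not computed.

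Among the neural genes SOX14 stood highest (ENSG00000168875, chr3:137483157-137485176, plus strand, a single exon). Its promoter holds 84 CpGs and had levels of 2.15, 1.04 and 2.53% in the conventional libraries and 30.7, 32.8 and 40.7% in the reset libraries. Every reset library thus lay far above every conventional one, as was seen at 4.63% of all promoters for any gap. The mean went from 1.91% ± 0.774 to 34.7% ± 5.26 (SD, n = 3 each), a rise of 32.8 points (adjusted p = 2.05e-07, quasi-binomial test). SOX11 (ENSG00000176887, chr2:5832516-5841517, plus strand) had 0.778, 0.535 and 0.291% in conventional and 5.19, 3.02 and 6.47% in reset cells over 161 CpGs. The groups did not overlap, and the rise was 4.36 points (adjusted p = 0.00111). The start site of LINC01248 lies 896 bp upstream of SOX11 on the other strand. SOX1 (ENSG00000182968, chr13:112721463-112726020, plus strand) had 0.712, 0.450 and 0.741% in conventional and 1.84, 3.45 and 0.654% in reset cells. The third reset library lay within the conventional range, and the difference of 1.35 points was not called (adjusted p = 0.140), although it was without that library (2.01 points, adjusted p = 0.0465). Without reset library 2 it was 0.614 points (adjusted p = 0.497). A promoter reaching 2000 bp upstream gave 5.04 points for SOX1 (adjusted p = 0.00402). SOX21 (ENSG00000125285, chr13:95361876-95364799, minus strand) had 0 to 1.52% in conventional and 0.422 to 2% in reset cells, and the groups overlapped (adjusted p = 0.442). The conventional library at 0 had no methylated call, which allows a level of up to 1.05% by counting error alone.

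Among the endoderm genes SOX7 was called higher and SOX18 lower. SOX7 (ENSG00000171056, chr8:10581278-10588021, minus strand, overlapping PINX1 on the same strand) had 0.346, 1.73 and 0.413% in conventional and 17.6, 18.1 and 6.40% in reset cells over 155 CpGs. All reset libraries lay above the conventional ones, with the third well below the other two, and the mean rose from 0.830% ± 0.781 to 14% ± 6.62 (adjusted p = 2.66e-05). The rise lay in the distal end of the promoter. The tile from -1000 to -500 bp went from 0.694% ± 1.20 to 39.7% ± 15.9 (adjusted p = 0.000107), and the tiles from -500 to 0 and from 0 to 500 bp stayed at means under 2% in both groups. With a promoter of 500 bp on either side of the start site the difference for SOX7 was 0.876 points (adjusted p = 0.350). SOX18 (ENSG00000203883, chr20:62678935-62680992, minus strand) had 9.78, 20.7 and 10.4% in conventional and 6.17, 8.33 and 8.93% in reset cells. The groups did not overlap, as at 68.9% of all promoters in that direction, and the mean changed by -5.82 points (adjusted p = 0.0348). This call rested on the high second conventional library, without which the change was -2.27 points (adjusted p = 0.239). It was also lost without reset library 1, 2 or 3 (adjusted p = 0.193, 0.0583 and 0.0514) and with the narrow promoter (-2.31 points, adjusted p = 0.379). The start site of TCEA2 lies 197 bp upstream of SOX18 on the other strand, so that the promoters overlap. SOX17 (ENSG00000164736, chr8:55370495-55373452, plus strand) had 9.68, 8.24 and 8.84% in conventional and 6.86, 7.77 and 5.16% in reset cells. The groups did not overlap, but the difference of -2.32 points was not called (adjusted p = 0.253).

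None of the neural crest promoters was called. SOX9 (ENSG00000125398, chr17:70117161-70122557, plus strand, inside the antisense RNA SOX9-AS1) had 0.410, 0.952 and 0.629% in conventional and 0, 1.75 and 0.503% in reset cells, and the groups overlapped (adjusted p = 0.799). SOX8 (ENSG00000005513, chr16:1031770-1036979, plus strand) had 0.804, 6.04 and 0.322% in conventional and 4.73, 5.30 and 6.22% in reset cells. The second conventional library lay among the reset values, and the difference of 3.03 points was not called (adjusted p = 0.116), whereas without that library it was 4.85 points (adjusted p = 0.000549). Without conventional library 3 it was 1.99 points (adjusted p = 0.301). With 2000 bp upstream it was 4.78 points (adjusted p = 0.0227). SOX10 (ENSG00000100146, chr22:38368319-38380562, minus strand, inside POLR2F on the other strand) had the highest conventional levels of the 10 genes, 26.6, 30.1 and 33.9%, and 54.1, 31.9 and 38.6% in reset cells. Its promoter has 39 CpGs and an observed to expected CpG ratio of 0.28, against 0.64 to 0.90 for the other members. The groups overlapped (adjusted p = 0.135), and with 2000 bp upstream the change turned to -12.9 points (adjusted p = 0.0319).

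**Figure D1:**
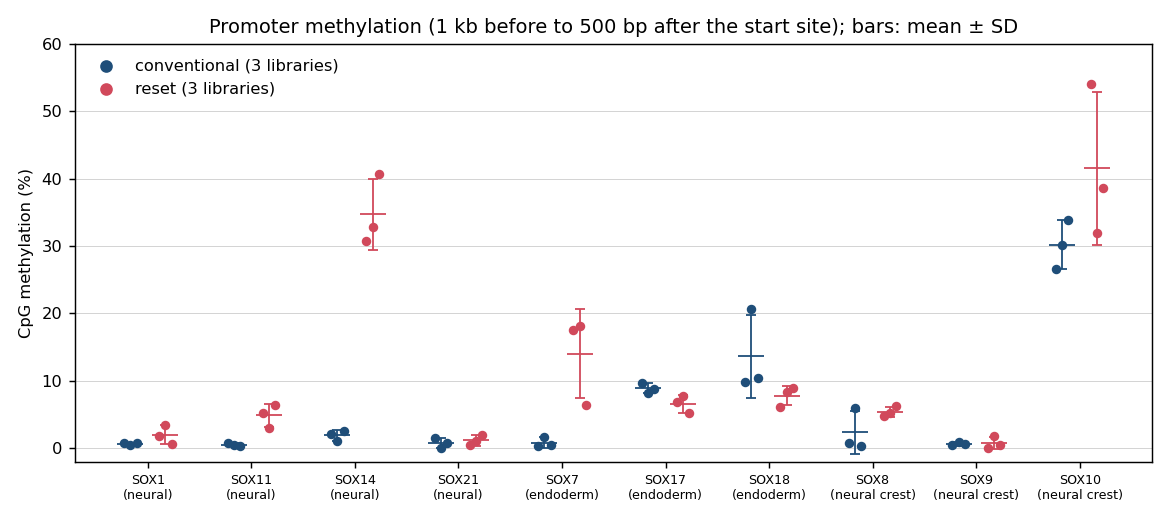
Promoter methylation (percent of CpG calls) of the 10 SOX genes. Each point is 1 library, blue for conventional and red for reset, and bars give the mean ± SD of 3 libraries. The SOX14 reset libraries lie between 30.7 and 40.7% above conventional libraries at 1.04 to 2.53%, while SOX1, SOX21 and SOX9 stay near 0 in all libraries.

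Averaged over the genes of a lineage within each library, the promoter level went from 0.955% ± 0.404 to 10.7% ± 1.55 for the neural genes, a change of 9.73 points that came mostly from SOX14. For the endoderm genes it went from 7.79% ± 2.11 to 9.48% ± 2.37, and the libraries overlapped. With the narrow promoter the endoderm change turned to -0.175 points. For the neural crest genes it went from 11.1% ± 1.62 to 15.9% ± 3.38, where SOX10 carried most of the level. The neural crest change of 4.82 points was 2.97 points without reset library 1. The endoderm change of 1.69 points was 0.731 without reset library 2, 1.07 and 1.10 without conventional libraries 3 and 1, and 2.91 and 3.02 without conventional library 2 and reset library 3. It was 3.25 points when levels were averaged over CpGs. These means are descriptions, since genes are not replicates of a lineage.

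Gain was also seen in the tiles, at a share near the 30% of member promoters. Of the 400 tiles of the 10 genes 298 were tested, with 10 to 267 calls per library, and 97 of them (32.6%) were called higher in reset cells. Of all 434277 tiles tested around protein-coding genes 2.16% were called higher. Another 129 member tiles (43.3%) were called lower, where 85% of all tiles were, and 72 were not called. Every reset library lay above every conventional one in 101 of the 298 tested member tiles, and in 2.28% of all tiles. Of the 97 raised tiles 92 showed this. The level in reset cells was at least 30% in 42 of the raised tiles and at least 50% in 17 of them. The median member tile had 15.1% in conventional and 30.3% in reset cells, against 90% and 30.5% over all tiles. The median change was -0.768 points over the member tiles and -50.4 points over all tiles. With an adjusted p under 0.001, 49 member tiles were called higher and 88 lower, and of all tiles 0.703% were called higher and 64.2% lower. With at least 20 calls in every library, 85 member tiles were called higher and 35 lower, against 3.73 and 70.5% of all tiles. With at least 5 calls it was 105 higher and 172 lower, against 1.66 and 87.8% of all tiles. The balance of raised and lowered member tiles thus depended on the minimum of calls.

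Gain and loss fell on different tiles. All 97 raised tiles were among the 153 that had under 20% methylation in conventional PSC, and all 129 lowered tiles were among the 145 that had 20% or more. This split uses the conventional levels that also enter the change, and it is a description. Over all genes, tiles under 20% in conventional PSC were called higher in 14.1% of cases, and tiles at 20% or more were called lower in 97.4%. The 145 methylated member tiles ended between 6.67 and 66.4% in reset cells. Among them 1 tile kept over 80% of a conventional level above 50%, the SOX8 tile from -2000 to -1500 bp, with 61.3% ± 13.8 in conventional and 54.7% ± 12 in reset cells (adjusted p = 0.376).

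The neural genes had 63 raised and 22 lowered tiles among 118 tested, the endoderm genes 17 and 45 among 87, and the neural crest genes 17 and 62 among 93. Of all tiles tested 2.16% were raised and 85% lowered. Tiles under 20% in conventional PSC made up 92 of the 118 neural tiles, 36 of the 87 endoderm tiles and 25 of the 93 neural crest tiles. Of these unmethylated tiles 63, 17 and 17 were raised, where 14.1% of such tiles over all genes were. Within a lineage the genes were also unlike each other. Among the neural genes 21 of 25 tested tiles were raised for SOX14, 19 of 36 for SOX1, 14 of 29 for SOX21 and 9 of 28 for SOX11. None was lowered for SOX14, 1 for SOX1, 7 for SOX21 and 14 for SOX11. Among the endoderm genes 10 of 23 were raised for SOX17 and 6 of 28 for SOX7, but 1 of 36 for SOX18, and 3, 16 and 26 were lowered. Among the neural crest genes 11 of 29 were raised for SOX9, 3 of 27 for SOX10 and 3 of 37 for SOX8, and 10, 23 and 29 were lowered. The lowered shares of SOX10 (85.2%), SOX8 (78.4%) and SOX18 (72.2%) were near or below the 85% of all tiles. The genes also differed in how many tiles started under 20% in conventional PSC. Of such tiles 21 of 24 were raised for SOX14, 19 of 33 for SOX1, 14 of 22 for SOX21 and 9 of 13 for SOX11. For SOX17, SOX7 and SOX18 it was 10 of 18, 6 of 12 and 1 of 6. For SOX9, SOX10 and SOX8 it was 11 of 17, 3 of 3 and 3 of 5. Tiles at 20% or more numbered 1 for SOX14 but 24 for SOX10. No test of lineage against lineage was made, as each rests on 3 or 4 genes.

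**Figure D2:**
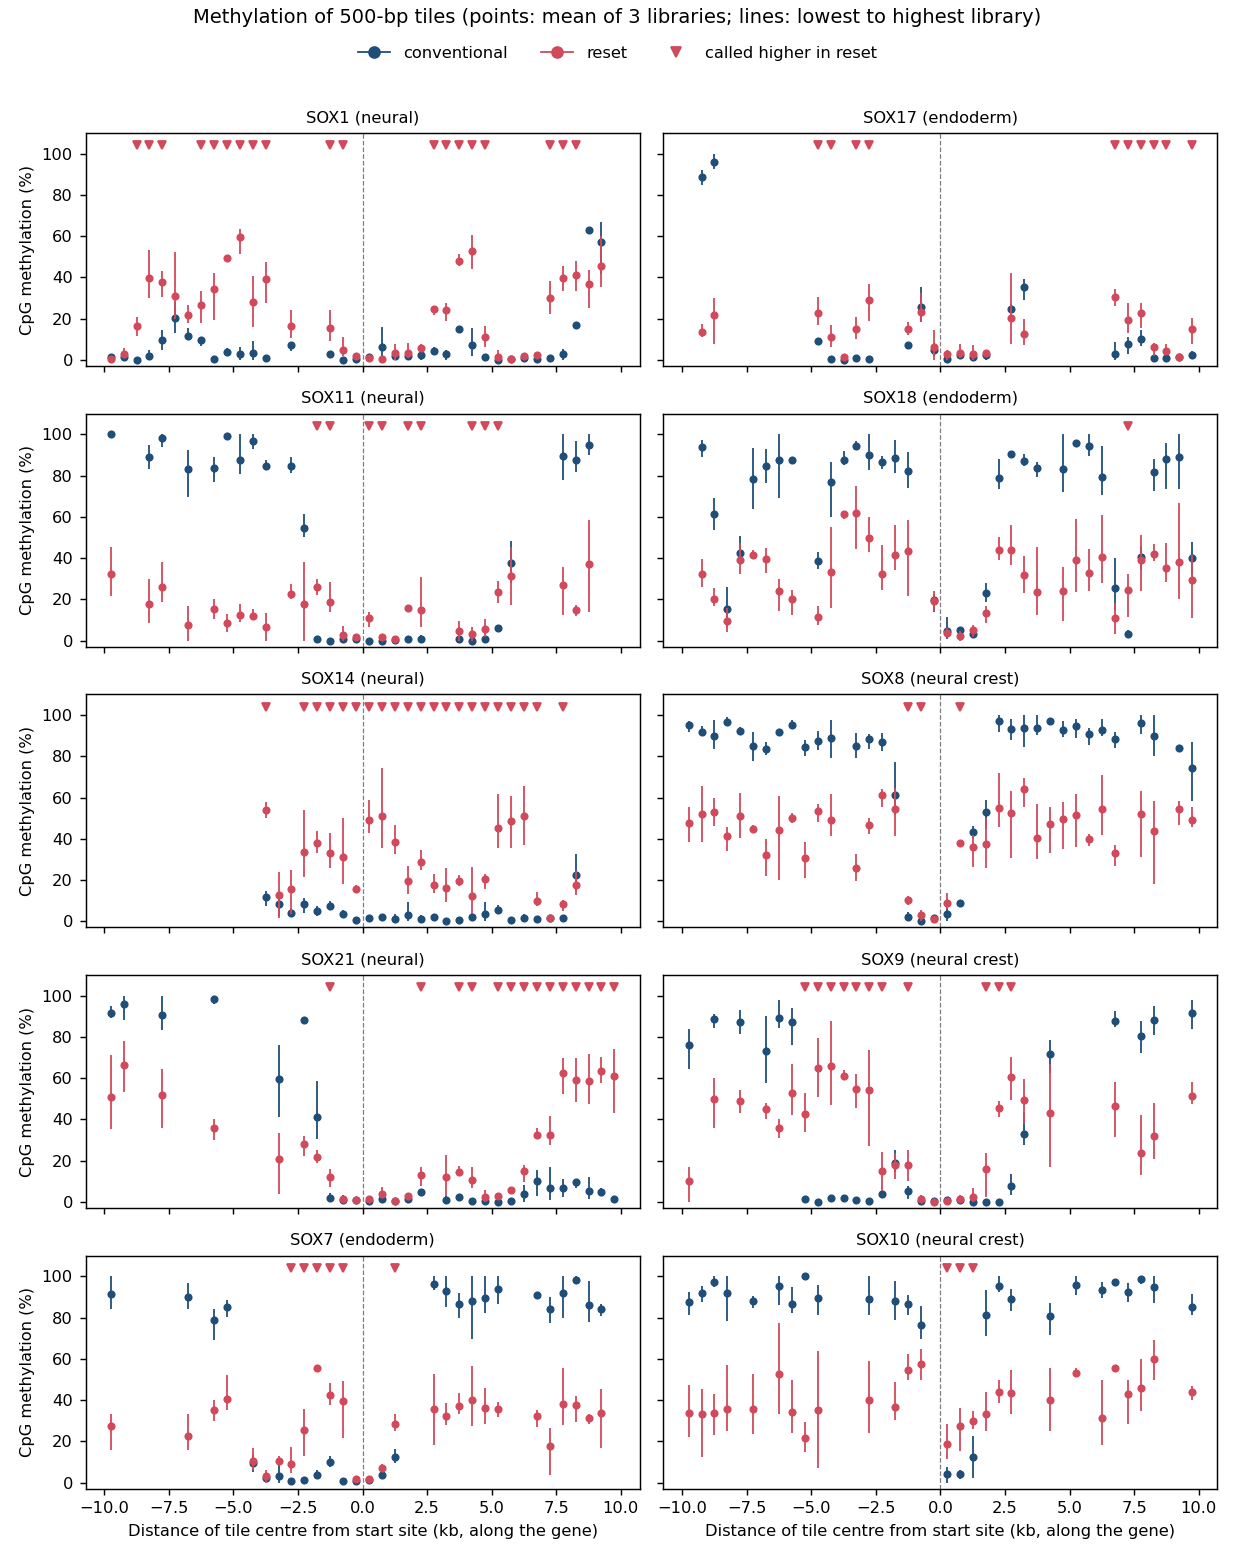
CpG methylation (percent) of the tested 500-bp tiles by the distance of the tile centre from the start site (kb, along the gene, dashed line at the start site), 1 panel per gene. Points are means of 3 conventional (blue) or 3 reset (red) libraries, lines run from the lowest to the highest library, and triangles mark tiles called higher in reset cells. SOX14 is raised across the start site, SOX9 and SOX1 on either side of a start site that stays near 0, and SOX18, SOX8 and SOX10 mostly show loss from high conventional levels.

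SOX14 had the longest raised stretch, 19 adjoining tested tiles from -2500 to 7000 bp of its start site (chr3:137480657-137490156, 458 CpGs), which covers the promoter, the only exon and sequence downstream. The mean over these tiles went from 2.6% to 30.5%. The level was uneven along it. The tile from -500 to 0 bp had 14, 17.8 and 15.4% in the reset libraries, below both of its neighbours. The tile from 0 to 500 bp had 46.0, 58.7 and 42.9%, and that from 500 to 1000 bp had 43.4, 74.2 and 35.7%. In conventional PSC these tiles had means of 0.483, 1.40 and 1.87%. The largest rise was in the tile from 6000 to 6500 bp, from 1.52% ± 1.65 to 50.9% ± 14.5 (adjusted p = 0.000119). The tile from 7000 to 7500 bp, which follows the stretch, stayed at 1.49% ± 1.30 and 1.53% ± 1.41. No tile of SOX14 was called lower.

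SOX1 and SOX21 were raised away from the start site, and SOX11 on either side of it. SOX1 had 5 raised stretches, of which that from -6500 to -3500 bp (chr13:112714963-112717962, 6 tiles, 194 CpGs) went from 3.54% to 39.4%. Its tile from -5000 to -4500 bp, whose middle is printed above, had 0, 6.06 and 2.99% in conventional and 63.6, 63.6 and 51.1% in reset cells (adjusted p = 5.25e-05). Tiles from -500 to 2500 bp of SOX1 were not called, and their reset means were 0.529 to 5.72%. Downstream, the tile from 4000 to 4500 bp of SOX1 went from 7.38% ± 7.07 to 52.8% ± 8.37. SOX21 was raised in 10 adjoining tiles from 5000 to 10000 bp (chr13:95354800-95359799, 211 CpGs), from 4.92% to 39.4%. Along that stretch the mean of SOX21 in reset cells rose from 2.90% at its near end to 61.2% in the last tile, which had 74.2, 43.2 and 66.2%. SOX21-AS1 and LINC00391 overlap this stretch. On the other side of SOX21, the tile from -6000 to -5500 bp fell from 98.6% ± 2.41 to 35.8% ± 5.20. The largest called loss of SOX1, from 8500 to 9000 bp, went from 63.1% ± 1.58 to 36.9% ± 10.3 (adjusted p = 0.0145) and was not called without reset library 2 (adjusted p = 0.0506). SOX11 gained less, with 26.1% ± 3.72 in the tile from -2000 to -1500 bp (0.725% ± 1.26 in conventional PSC, adjusted p = 0.000128) and 10.7% ± 3.66 just after its start site (0 in every conventional library, adjusted p = 0.000849). Next to its raised tile, the tile from -2500 to -2000 bp of SOX11 fell from 54.4% ± 6.22 to 17.7% ± 19.2 (adjusted p = 0.00730). The largest of the called losses was in the SOX11 tile from -5500 to -5000 bp, with 100, 100 and 97.3% in conventional and 8.33, 4 and 13% in reset cells.

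SOX9 had an unmethylated start site between raised stretches. From -5500 to -2000 bp (chr17:70111661-70115160, 7 tiles, 180 CpGs, within SOX9-AS1) the mean went from 1.42% to 51.2%. The SOX9 tile from -5000 to -4500 bp had no methylated call in any conventional library, which allows up to 3.95, 5.00 and 5.08%, and 64.3, 51.1 and 79.5% in reset cells (adjusted p = 4.9e-05). The 4 tiles of SOX9 from -1000 to 1000 bp were not called, with reset means of 0 to 1.43%. Downstream, the tiles from 1500 to 3000 bp (113 CpGs) went from 2.65% to 40.7%. The next tile upstream of the first stretch, from -6000 to -5500 bp, fell from 87.4% ± 9.80 to 52.9% ± 12.5 (adjusted p = 0.00634). The tile from -5500 to -5000 bp rose from 1.41% ± 1.36 to 42.6% ± 9.47, so these neighbours moved in opposite directions. The largest called loss of SOX9, from -10000 to -9500 bp, went from 76.2% ± 10.2 to 10.3% ± 9.01.

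SOX10 and SOX8 had small raised islands in methylated surroundings. At SOX10 the tiles from 0 to 500, from 500 to 1000 and from 1000 to 1500 bp went from 4.04, 4.11 and 12.4% to 18.5, 27.7 and 29.9% (adjusted p = 0.0315, 0.00253 and 0.0154). The tile from 1500 to 2000 bp fell from 81.2% ± 11.4 to 33.0% ± 9.67 (adjusted p = 0.00108). The SOX10 tile from -5500 to -5000 bp was fully methylated in all conventional libraries and had 29.4, 21.4 and 14.8% in reset cells. At SOX8 the tile from 500 to 1000 bp, in an exon of the gene, had 8.06, 8.27 and 10.5% in conventional and 38.0, 38.9 and 36.9% in reset cells (adjusted p = 0.000199). On its far side, the SOX8 tile from 2000 to 2500 bp fell from 97.3% ± 4.68 to 54.8% ± 14.9. The largest called loss of SOX8, from -3500 to -3000 bp and within CEROX1 and LMF1, went from 85.1% ± 5.97 to 25.6% ± 6.48.

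The endoderm genes differed from each other. SOX7 was raised in 5 adjoining tiles from -3000 to -500 bp (chr8:10588522-10591021, 182 CpGs), from 3.23% to 34.5%. Its tile from -2000 to -1500 bp had 2.33, 5.97 and 3.17% in conventional and 55.3, 56.4 and 55.6% in reset cells (adjusted p = 4.84e-05). SOX17 was raised from -5000 to -4000, from -3500 to -2500, from 6500 to 9000 and from 9500 to 10000 bp. The reset means over these stretches were 17.0, 22.1, 16.6 and 15.1%. The SOX17 tile from -3000 to -2500 bp had 1.33, 0 and 0% in conventional and 31.8, 18.8 and 36.8% in reset cells (adjusted p = 0.000219). The largest called losses lay further upstream, from 90% ± 6.29 to 22.4% ± 9.51 in the SOX7 tile from -7000 to -6500 bp and from 88.9% ± 3.82 to 13.3% ± 3.51 in the SOX17 tile from -9500 to -9000 bp. From -1000 to 2000 bp no SOX17 tile was called, with reset means of 2.69 to 23.3%. SOX18 had 1 raised tile, from 7000 to 7500 bp, with 29.2, 11.3 and 32.4% against 5.33, 3.03 and 1.28% (adjusted p = 0.00341), and 26 lowered tiles. In the SOX18 tile from -6000 to -5500 bp, within TCEA2, the level fell from 87.7% ± 1.72 to 19.9% ± 6.71.

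**Figure D3:**
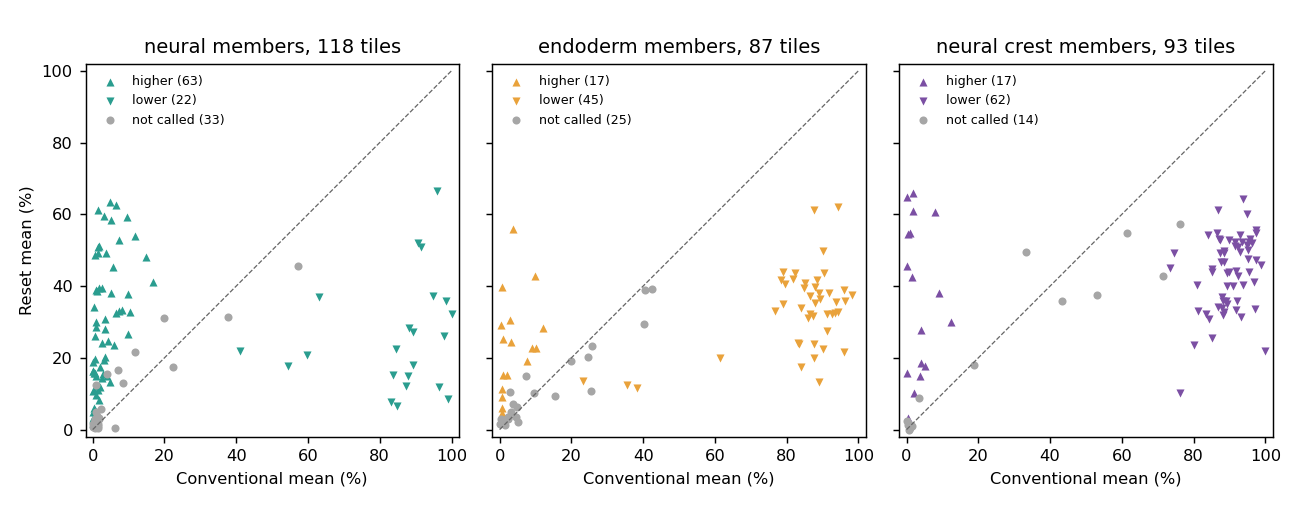
Mean methylation (percent) of each tested tile in conventional (x axis) and reset cells (y axis), by lineage, with the number of tiles called higher, lower or not called in the legend. The dashed line marks equal levels. Raised tiles stand at the left edge, under 20% in conventional PSC, and lowered tiles stand mostly at the right.

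Single CpGs in the tiles with the largest rise were compared where a CpG had at least 5 calls in each group. In the SOX9 tile from -5000 bp all 15 such CpGs were higher in reset cells, 13 of them with at least 50%, and conventional PSC had 0 at each. In the SOX1 tile from -5000 bp 16 of 16 CpGs were higher and 13 had at least 50%. In the SOX21 tile from 9500 bp 25 of 25 were higher and 19 had at least 50%. The SOX18 tile from 7000 bp was patchier, with 8 of 18 CpGs higher, a reset median of 0 and a highest CpG at 80%. The SOX10 tile from 500 bp had 12 of 17 CpGs higher and none at 50%. These tiles were chosen for their rise, so the counts describe how it was spread and are no added support for it. The SOX9 tile had no methylated call in conventional PSC, so each of its CpGs had to be 0 there. The depth of a single CpG is low, and no test was made on single CpGs.

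The CpG number of a tile went with its level in reset cells. Of the member tiles under 20% in conventional PSC, those with up to 15 CpGs were raised in 25 of 30 cases, those with 16 to 30 in 43 of 55, and those with over 30 in 29 of 68. Over all genes 18.5, 17.8 and 10.5% of such tiles were raised. The member tiles of these classes had median levels in reset cells of 22.8, 19.6 and 3.37%, and the tiles of all genes 3.52, 1.7 and 0.946%. Over these 153 tiles Spearman's rho between CpG number and reset level was -0.52 and Pearson's r was -0.43. Within the lineages rho was -0.57 (92 neural tiles), -0.63 (36 endoderm tiles) and -0.27 (25 neural crest tiles). Tiles of a gene share its surroundings and libraries, tiles with few CpGs have fewer calls, and the values are descriptions. Tiles were called CpG-dense when they had at least 55% GC and a CpG number over 0.65 times that expected from their base content. Of the CpG-dense member tiles under 20% in conventional PSC 31 of 70 (44.3%) were raised, against 10.2% of such tiles over all genes. Of the other member tiles under 20%, 66 of 83 (79.5%) were raised, against 18.3%. No member tile under 20% was lowered, where 7.28% of the CpG-dense and 20.2% of the other tiles of all genes were. At 20% or more, 3 of 5 CpG-dense and 126 of 140 other member tiles were lowered and none was raised. Over all genes 92.3 and 97.4% of such tiles were lowered and 0.873 and 0.095% raised.

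By distance from the start site, 12 of 38 member tiles within 1 kb were raised, 29 of 69 from 1 to 3 kb, 31 of 86 from 3 to 6 kb and 25 of 105 from 6 to 10 kb. Over all genes 4.76, 2.84, 1.57 and 1.15% of the tiles in these bands were raised. The lineages differed in the farthest band, where 18 of 38 neural, 7 of 32 endoderm and 0 of 35 neural crest tiles were raised. Their starting levels there differed too, with conventional medians of 9.72, 80.7 and 89.8%. The median conventional level of the member tiles climbed from 1.17% within 1 kb to 84.1% beyond 6 kb, and that of all tiles from 7.24 to 92%. The median reset level was 3.34% within 1 kb and 26.1, 31.9 and 33.9% in the bands beyond, against 2.35, 26.4, 34.1 and 35.8% over all tiles.

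Summed over all CpG-dense tiles of a gene, the level was called higher in 8 of the 10 SOX genes and lower in none. Over 14447 genes with such tiles 5.68% were called higher and 19.5% lower. At these 8 genes every reset library lay above every conventional one, as at 10.4% of all genes, and at none below, as at 28.8%. The median member went from 3.1% to 14.5%, and the median gene from 1.55% to 1.21%. SOX14 had 2.31, 3.18 and 2.79% in conventional and 23, 31.1 and 28.3% in reset cells. SOX9 had 3.54, 4.04 and 2.75% and then 28.5, 25.7 and 27.5%. For both genes the groups stood far apart (adjusted p = 0.000405 and 0.000129). SOX7 rose from 10.7% ± 1.53 to 19.6% ± 0.469, SOX21 from 0.825% ± 0.175 to 9.49% ± 4.42 and SOX10 from 7.84% ± 5.35 to 28.1% ± 8.57. Their adjusted p-values in the quasi-binomial test were 0.00303, 0.0111 and 0.046. The SOX10 value rests on 2 dense tiles with 98 CpGs. SOX1, SOX11 and SOX17 rose to no more than 5.75% (adjusted p = 0.0367, 0.00122 and 0.0432, quasi-binomial test). The calls of SOX10, SOX17 and SOX1 thus lay near the threshold. SOX18 (6.59% ± 2.42 and 4.84% ± 3.39) and SOX8 (25.6% ± 4.20 and 24.3% ± 4.48) were not called. The count was sensitive to single libraries. It was 4 without conventional library 1, 2 or 3 and 5 without reset library 1, and it did not exceed 6 with any library left out. Over all genes 3.49 to 4.34% were called higher in these fits.

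Summed over the other tiles, 6 SOX genes were called lower and 3 higher, where 99% of 19729 genes were called lower and 0.826% higher. The 3 raised genes were neural. SOX1 had 10.2, 9.24 and 7.87% in conventional and 31.2, 29.6 and 27.6% in reset cells (adjusted p = 1.07e-15). SOX14 had 10.5, 11.4 and 12.1% and then 27.2, 26.5 and 29.9% (adjusted p = 3.97e-14). SOX21 rose from 20.6% ± 0.527 to 25.6% ± 2.35 (adjusted p = 0.00150). In all 3 every reset library lay above every conventional one, which 0.806% of genes showed. The fourth neural gene, SOX11, fell from 49.2% ± 4.42 to 20.1% ± 1.43. SOX17 had 18.1% ± 1.02 and 18% ± 1.72 and was not called (adjusted p = 0.923), which makes it the only member without a call here. SOX9 fell by 6.41 points, from 43.3% ± 3.37 to 36.9% ± 4.06. SOX7, SOX18, SOX8 and SOX10 fell to between 29.3 and 46.9%, with changes of -30.8 to -45.1 points. The median gene went from 80.1% to 29.2% and thus started far above the 3 raised genes. The share raised among genes that start as low as these was not computed.

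**Figure D4:**
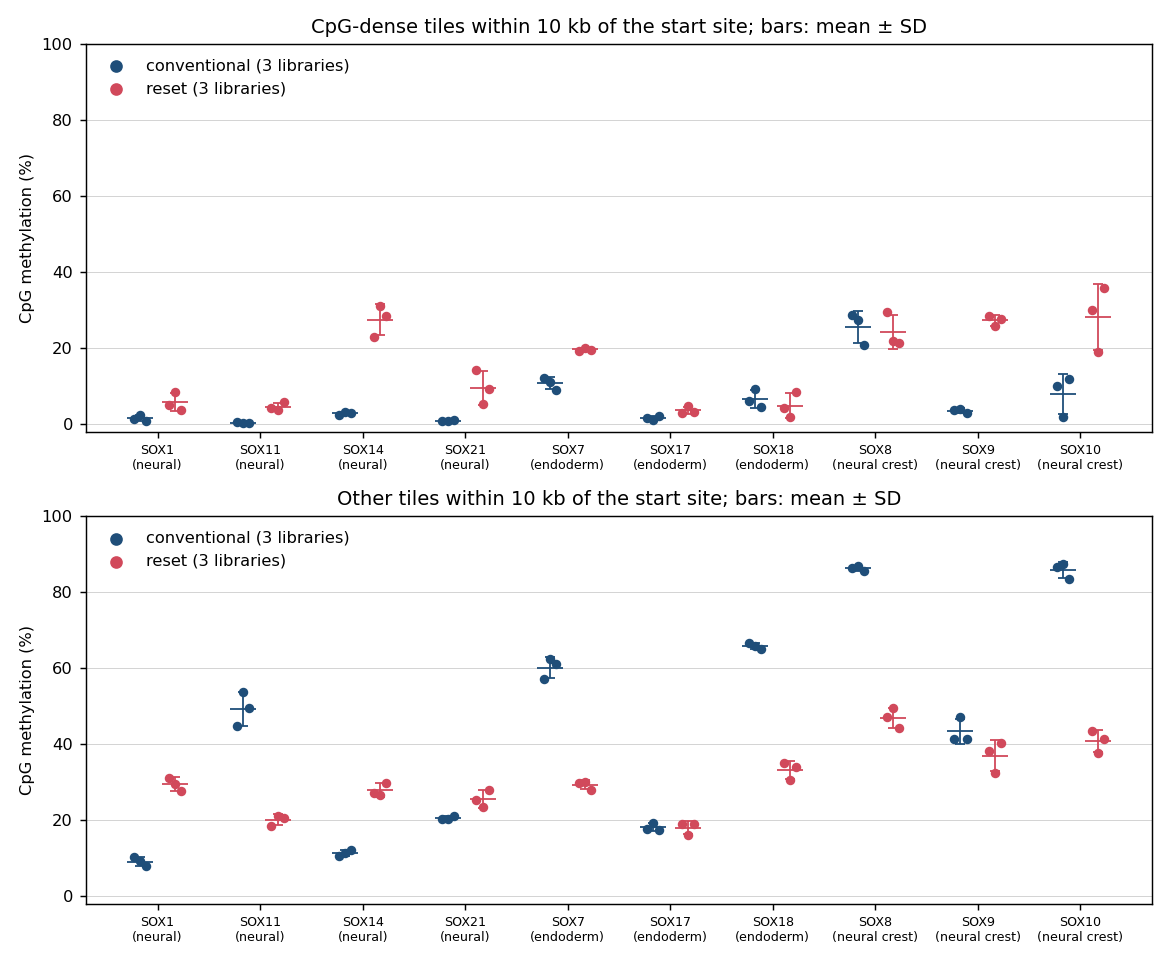
Methylation (percent of CpG calls) summed over the CpG-dense tiles (top) and the other tiles (bottom) within 10 kb of the start site. Points are libraries (blue conventional, red reset) and bars are mean ± SD of 3 libraries. In the bottom panel SOX1, SOX14 and SOX21 lie higher in reset cells, SOX17 is level, and the other 6 genes lie lower.

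The gene bodies, from 500 bp after the start site to the transcript end, also held both gains and losses. The split differed from that of the other tiles, where SOX9 and SOX11 were lower. SOX14, SOX9, SOX1 and SOX21 were called higher, SOX10, SOX7, SOX8 and SOX18 lower, and SOX11 and SOX17 were not called. Of 19145 bodies 1.15% were called higher and 97.8% lower. The median of all bodies went from 87.5% to 34%, and that of the members from 11.2% to 19.9%. The share raised among bodies that start as low was not computed. Every reset library lay above every conventional one in 4 of the 10 bodies and below in 3, against 1.16 and 97.7% of all bodies. The SOX14 body had 1.62, 3.38 and 1.41% in conventional and 43.9, 51.8 and 33.3% in reset cells, a rise of 40.9 points (adjusted p = 4.14e-11). The SOX9 body had 12.5, 18.9 and 14.6% and then 31.1, 26 and 28.8% (adjusted p = 6.82e-06). The groups did not overlap at either gene. SOX1 rose from 3.86% ± 2.06 to 10.4% ± 1.96 and SOX21 from 1.60% ± 0.402 to 4.39% ± 0.490. The SOX10, SOX7 and SOX8 bodies had conventional means of 68.6, 58.7 and 74.2% and reset means of 39.6, 30 and 49.9%. They lost 42.3, 48.9 and 32.8% of their conventional level. The SOX18 body (11.5% ± 2.62 and 6.87% ± 3.25) was called lower although its libraries overlapped (adjusted p = 0.0396). The number of lowered bodies was 3 without conventional library 1 or 2 or reset library 1 or 2. The SOX11 body had 10.8% ± 0.886 and 11.2% ± 1.83 (adjusted p = 0.770), and the SOX17 body 3.13% ± 1.19 and 3.95% ± 2.23 (adjusted p = 0.505).

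The other 9 SOX genes had 6 lowered promoters and 1 raised promoter, where 67.4% of all promoters were lowered and 3.98% raised, so that the lowered share is near that background. SOX5 rose from 6.09% ± 3.38 to 26% ± 3.51 (adjusted p = 0.000442), but with promoters of 500 bp on either side of the start site 0 of the 9 were called higher and 3 lower. SOX6, SOX30 and SOX15 fell most, with changes of -73.4, -60.8 and -30.2 points. SOX3, SOX13 and SOX4 changed by -13.6, -10.8 and -8.29 points. Of these SOX3 lies on chromosome X, for which the paper reports a specific loss of intermediate CpG island levels in reset cells. SOX2 had 1.34% ± 1.37 and 2.46% ± 0.629 and SOX12 had 0.605% ± 0.238 and 1.86% ± 0.635, and neither was called. Without reset library 1 the number of raised promoters was 2. The median level of these 9 genes was 14.3% in conventional PSC, against 1.37% for the 10 lineage genes.

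Lists of other lineage regulators were read in the same promoter fit, in which 3.98% of all promoters were called higher and 67.4% lower. Of 10 neural regulators 5 promoters were higher and none lower, with SIX3 (34.6 points), OTX2 (9.63 points) and POU3F2 (8.04 points) changing most. These encode factors of the forebrain and of neurons. Of 10 endoderm regulators 4 were higher and 1 lower. GSC rose by 5.49 points, EOMES by 4.17 and GATA4 by 3.01, and MIXL1, a primitive streak factor, fell by 9.02 points. With promoters of 500 bp on either side of the start site 0 endoderm regulators were called in either direction, the neural count fell to 2 higher and the neural crest count to 0 lower, where 4.38% of all promoters were called higher and 39.6% lower. Of 10 neural crest regulators 4 were higher and 1 lower. PAX3 went from 1.25% ± 0.440 to 49.8% ± 9.44 and TFAP2B from 9.07% ± 3.74 to 43.6% ± 5.85, and MSX1 rose by 7.41 points. ETS1 fell by 15.4 points. The median changes of the 3 lists were 2.68, 1.13 and 1.76 points, against -9.59 points over all promoters. Their median conventional levels were 0.906, 1.08 and 1.14%, against 15.4% over all promoters, so these promoters had little methylation to lose. The share called among promoters that start as low was not computed. The lists were chosen with earlier results of these data known.

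The 5 protein-coding promoters whose levels over the 6 libraries lay nearest to those of SOX14 were SIX3, DMRT1, NPR3, ZNF660 and LHX9, at Euclidean distances of 3.09 to 8.16 points. SIX3, the nearest, had 1.36, 0 and 3.41% in conventional and 32.7, 33.6 and 42.2% in reset cells, where SOX14 had 30.7, 32.8 and 40.7%.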

How the data were processed

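Reads were trimmed (Trim Galore) and mapped to GRCh37 by the authors (Bismark 0.9.0 and Bowtie2 in the submitters' processing notes). The paper's methods name an earlier version of Bismark. Removal of duplicate reads is not given in the sources used here. For every library and CpG cytosine the deposited data give the count of methylated calls and the count of unmethylated calls, not normalized. The percent deposited beside them equals the share of methylated calls and was only checked. Positions count from 0, and printed coordinates from 1.

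Calls on both strands of a CpG were summed, and the level of a region is methylated calls over all calls. For each kind of region of all protein-coding genes (GENCODE v44lift37, canonical transcripts, chromosomes 1 to 22 and X), conventional and reset libraries (n = 3 each) were compared by a quasi-binomial logistic model of the counts with a likelihood-ratio F test, two-sided. Its dispersion was squeezed with limma 3.58.1 (R 4.3.3), with a lower limit of 1, and p-values were adjusted by Benjamini-Hochberg over all regions of that kind. Regions needed 10 calls in every library. Bodies under 200 bp were left out. Counting floors (3 calls of the total) and levels of 0 cover counting error only, since PCR copies are not independent molecules.

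The members and gene lists were chosen with earlier results of these data known. All 10 members are named, with the tile of largest rise and of largest fall past the threshold without overlap between groups, the adjoining raised tiles, tiles chosen after their values were seen to show an edge or a gap, up to 3 changed genes per list and direction, and the 5 promoters nearest to the member with the largest promoter change. Alternatives were the minimum of calls, a replicate block, Fisher's exact test, leaving out each library, other promoter, tile and body limits, and another definition of CpG-dense tiles. A stricter threshold and a minimum change were added after seeing the data.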

Additional observations from a re-analysis of the deposited data

How the results depend on the processing

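The 3 raised member promoters kept their direction over the alternatives run, with SOX7 at 0.876 points (adjusted p = 0.35) with promoters of 500 bp on either side. The tiles of largest rise and of largest fall were chosen for a call without overlap between the groups, and SOX14 had no lowered tile. Their direction could therefore not turn with a library left out. The other settings run on these tiles leave the change itself as it is, so their direction was not put to a test. Conventional and reset libraries share only a number: the correlations of same-numbered deviations from the group means were 0.008, 0.012 and 0.01. Each library correlated best with the one of its own number, but all values are close to 0. Over all pairs they ran only from -0.017 to 0.012, and no pairing is read from them. With the replicate block 3.31% of all promoters, 1.35% of tiles and 1.74% of CpG-dense flanks were higher. In that fit 64% of all promoters, 78.6% of tiles and 97.8% of bodies were lower. Of the members, 0 promoters were called lower (SOX18 adjusted p = 0.0516), and 5 CpG-dense flanks and 71 tiles were higher. Lower calls fell on 118 member tiles and 3 bodies, and 3 endoderm list promoters were higher. The SOX1 tile from 8500 bp lost its call (adjusted p = 0.062). Fisher's exact test on pooled calls, which ignores the spread between libraries, gave 6 higher member promoters and 2 higher other SOX promoters. In that fit 5.52% of all promoters were higher and 72.5% lower. With promoters of 500 bp on either side (4.38% of all promoters higher and 39.6% lower), 0 member promoters were lower and 2 higher, other SOX genes had 3 lower and 0 higher, the neural list 2 higher, the endoderm list 0 lower and 0 higher and the neural crest list 0 lower, and the endoderm members' mean change was -0.175 points. With 2000 bp upstream (2.43% of all promoters higher and 88.6% lower), 2 member promoters were lower and 5 higher, other SOX genes had 2 higher, the neural list 1 lower, the endoderm list 3 lower and the neural crest list 3 lower and 6 higher, and the SOX10 change was -12.9 points. A minimum of 20 calls, which leaves fewer tiles to test, gave 35 lower and 85 higher member tiles (70.5 and 3.73% of all tiles). Tiles of 1000 bp, which are fewer, gave 62 higher, where 1.78% of all such tiles were. Dense tiles set at 50% GC and a ratio of 0.6 gave 1 lower flank, where 39.8% of all such flanks were lower. An adjusted p under 0.001 left 0 lower and 2 higher member promoters, 49 higher tiles, and 2 higher flanks each for dense and other tiles (of all features 1.61, 0.703, 1.02 and 0.74% higher). A change of at least 10 points left 0 lower and 2 higher promoters, 2 higher bodies, 3 higher dense flanks and 2 higher other flanks (1.72, 0.773, 2.7 and 0.552% of all higher). Except where a construction is named, the cause was not tested. With each library left out in turn, member promoters were lower in 0 to 1 cases and other SOX promoters were higher in 1 to 2. CpG-dense flanks were higher in 4 to 6, and bodies were lower in 3 to 4. Over all genes in these fits 63.3 to 65.4% of promoters and 97.6 to 97.8% of bodies were lower. There 3.35 to 3.71% of promoters and 3.49 to 4.34% of CpG-dense flanks were higher.

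Depth was about 3 calls per CpG and library. No test was made on single CpGs, and 298 of 400 member tiles reached the minimum of calls.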
